A study of Homo sapiens with 4 samples.

Results

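Cytosines of glucocorticoid response element (GRE) half-sites and of E-boxes lying nearest to a ZNF gene were examined in BisChIP-seq data from HEK-293T, a human embryonic kidney cell line. BisChIP-seq is bisulfite sequencing of immunoprecipitated chromatin, in which a cytosine read as unconverted is counted as methylated. The completeness of the conversion was not examined here, so the methylated reads below are unconverted reads. The members were all distinct sites whose nearest gene, as the deposited tables name it, starts with ZNF followed by a digit. They were 148 of 15100 distinct positions and fell to 96 of 7083 gene names. Every library came from cells that overexpressed DNMT3A, a DNA methyltransferase, from the vector DNMT3A-pLX304. For GR the cells also carried GR-pCMV14 with a Flag tag and were given 4 nM dexamethasone, and there was 1 anti-Flag and 1 IgG library. For BMAL1-CLOCK they carried BMAL1-pCMV14 and CLOCK-pCMV14 without dexamethasone, again with 1 anti-Flag and 1 IgG library. No group had a replicate, so all intervals below cover counting error only, and sites of 1 library are not replicates of a condition. The anti-Flag antibody recognises the tagged factors made from the vectors, so these libraries describe overexpressed proteins in 1 cell line.

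ZNF genes encode zinc finger proteins, in most cases of the C2H2 kind, in which each finger holds a zinc ion and contacts a few bases of DNA. Many of them also carry a KRAB domain, which recruits the corepressor TRIM28 and silences transposable elements. A large part of the family lies in tandem clusters on chromosome 19. The cytosines measured are all outside CpG: the fifth base of AGAACA, the fifth base of its complement TGTTCT, and the first base of CACGTG. Methylation at such positions is low in most somatic cells. Of the 96 names, 91 are current RefSeq symbols and 5 are older ones. ZNF643 is now ZFP69B, ZNF767 and ZNF826 are now the pseudogenes ZNF767P and ZNF826P, while ZNF259 is now ZPR1 and ZNF645 is now CBLL2. The family has 509 protein-coding genes with a ZNF symbol in RefSeq, of which 90 (17.7%) had a site in at least 1 table. The same share over all protein-coding genes was not calculated, so 17.7% cannot be called high or low.

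A single member lay close enough to a start site to be seen in the RefSeq promoter windows, which run from 250 bases before to 50 bases after each start. This was the AGAACA site 29 bp from the TSS of ZNF540, a KRAB zinc finger gene, at position 42777645 of chromosome 19 in hg18, on the plus strand. A RefSeq start of ZNF540 in GRCh38.p14 has the same hexamer on the same strand, with its cytosine at base 29 of the transcript. The stretch chr19:37594888-37594917 of that build, on the plus strand, is shown with the hexamer in capitals because it is the member nearest to a TSS.

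ZNF540: gtccggcgctccAGAACAgaacgatccctg

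In the GR library 0 of 4 reads at this cytosine were methylated. The match rests on the gene name, the hexamer, the strand and the distance, since the coordinates belong to different builds. Among the windows of all genes, 14.8% of 35116 held AGAACA on either strand, that is, AGAACA or TGTTCT (exact 95% interval 14.4 to 15.2%), against 8.96% of 647 windows of ZNF genes (6.88 to 11.4%). CACGTG, which is its own complement, was in 7.26% of all windows (6.99 to 7.53%) and in 4.79% of those of ZNF genes (3.28 to 6.73%). Of the 107 windows of ZNF genes with a site, 12 held AGAACA on either strand (11.2%, 5.93 to 18.8%). CACGTG was in 5 of them (4.67%, 1.53 to 10.6%). Both of these intervals hold the share of all windows. These shares describe the letters of the windows, several of which can belong to 1 gene, and no test was made.

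The GR library held 87 ZNF sites at 59 genes, its IgG control 19 at 19 genes, and the BMAL1-CLOCK library 42 at 35 genes. Neither of the 2 sites in the BMAL1-CLOCK IgG table was near a ZNF gene. By table, GR had 17 AGAACA and 70 TGTTCT members, and the IgG control 17 and 2. As a share of the table this was 1.48% for GR AGAACA, 1.01% for GR TGTTCT, 0.810% for IgG AGAACA, 0.325% for IgG TGTTCT and 0.965% for CACGTG. A single site was found at 70 of the 96 genes (72.9%) and at 58.6% of the 7083 gene names of all sites. Sites in 1 library only were found at 81 ZNF genes (84.4%) and at 71.1% of all genes. Both GR and its IgG control had sites at 5 ZNF genes, which are 8.47% of the ZNF genes of GR and 26.3% of those of the control. Over all genes the same overlap was 20.2 and 55.3%. GR and BMAL1-CLOCK shared 11 ZNF genes, 18.6% of those of GR and 31.4% of those of BMAL1-CLOCK, against 28.0 and 47.4% over all genes. All 3 libraries had sites at 2 ZNF genes (2.08%), ZNF804A and ZNF703, and at 7.69% of all genes. These shares were not tested.

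Most members, like most other sites, were read at or near the minimum depth. In the GR library 69 of 87 had 4 reads, the minimum kept in the tables, 13 had 5, 4 had 6 and 1 had 7. Of the 19 IgG members, 15 had 4 reads and 4 had 5, and of the 42 BMAL1-CLOCK members 27 had 4 reads and 1 had 10. Other sites of the same tables had the same median of 4 reads. A depth of 4 reads was held by 76.5% of GR AGAACA members and 81.5% of the other sites, and by 80.0% of GR TGTTCT members and 79.2% of the other sites. The other sites reached 3393 reads in the GR library, where 1.86% of AGAACA and 1.48% of TGTTCT sites had 8 or more. None of the GR or IgG members had 8 reads. The GR members with the most reads were a TGTTCT site at ZNF648 with 7 reads, and TGTTCT sites at ZNF184, ZNF704, ZNF280C and ZNF846 with 6 reads each.

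**Figure D1:**
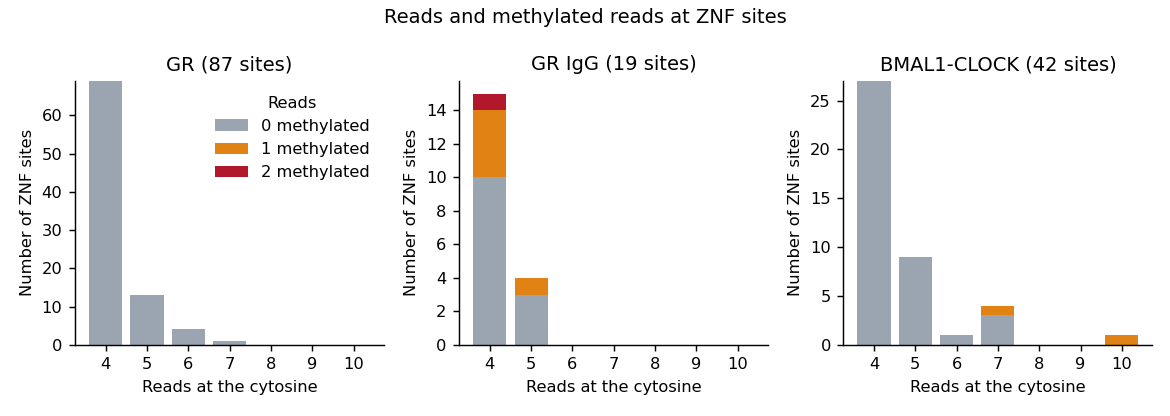
Number of ZNF sites (vertical axis) by reads at the cytosine (horizontal axis) in the GR, GR IgG and BMAL1-CLOCK libraries, with colours for 0, 1 or 2 methylated reads. All 87 GR sites are at 0 methylated reads, while 6 of 19 IgG sites and 2 of 42 BMAL1-CLOCK sites have at least 1.

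No GR member had a methylated read. The 17 AGAACA sites had 0 of 72 reads methylated, so their level may be up to 4.17%, and the 70 TGTTCT sites had 0 of 300, which allows up to 1.00%. At the level of sites, 0 of 17 allows a share with a methylated read of up to 17.6%, and 0 of 70 up to 4.29%. The same share over all sites was 3.83% of 1149 AGAACA and 2.95% of 6958 TGTTCT sites, so both backgrounds lay under these limits. Against all other sites of the table the difference was -3.89 percentage points for AGAACA (Newcombe 95% interval -5.18 to 14.6) and -2.98 for TGTTCT (-3.40 to 2.24). Both intervals include 0. Among other sites with no more reads than the deepest member of the table, the share was 2.60% for AGAACA and 2.42% for TGTTCT.

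Highly methylated sites, at a level of 50% or above, were likewise 0 of 17 and 0 of 70 among the GR members. They were 1.22% of all AGAACA and 1.55% of all TGTTCT sites of the library. The differences from the other sites were -1.24 points (-2.07 to 17.2) and -1.57 points (-1.89 to 3.64). In a one-sided exact binomial test of each site against the pooled level of its table (1.92% for AGAACA and 2.29% for TGTTCT), adjusted by Benjamini-Hochberg over all sites of the table, 1.13% of AGAACA and 1.15% of TGTTCT sites passed. None of the 87 members did, and none had an unadjusted p under 0.05, as none had a methylated read.

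The 5 GR members within 5 kb of a TSS in the AGAACA table were at ZNF540, ZNF771, ZNF184, ZNF410 and ZNF718. The site at ZNF771 was 580 bp from the TSS with 0 of 4 reads methylated, that at ZNF184 was 657 bp away with 0 of 5, that at ZNF410 was 1345 bp away with 0 of 4, and that at ZNF718 was 3202 bp away with 0 of 4. For TGTTCT the 9 near members began at 2053 bp, at ZNF385B with 0 of 4 reads. Next were ZNF836 at 2313 bp with 0 of 4 reads, ZNF143, a transcription factor of small nuclear RNA genes, at 2425 bp with 0 of 5, ZNF335 at 2602 bp with 0 of 4, and ZNF45 at 3648 bp with 0 of 5. No TGTTCT member lay within 2 kb, against 5.36% of the other TGTTCT sites (-5.36 points, Newcombe 95% interval -5.91 to -0.130). The AGAACA members of the same library went the other way, with 4 of 17 within 2 kb against 6.36% of the other AGAACA sites (17.2 points, 3.11 to 40.9). Both motifs are the same hexamer read on either strand. Their joint share within 2 kb was not calculated, so neither difference stands for the library as a whole.

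Several GR members shared a gene. ZNF608 had 6, more than any other ZNF gene of this library, although 65 genes of other names had more. Of the ZNF608 sites, 5 were TGTTCT sites from 164936 to 680667 bp from the TSS and 1 was an AGAACA site at 294418 bp. All had 0 of 4 reads methylated. ZNF184, ZNF718, ZNF644, ZNF648, ZNF621, ZNF438, ZNF280D, ZNF576 and ZNF608 were the 9 genes with both motifs. At ZNF648 on chromosome 1 the TGTTCT cytosine at position 180310232 and the AGAACA cytosine at 180310242 were 10 bp apart on the plus strand, with 0 of 7 and 0 of 5 reads methylated. At ZNF826 on chromosome 19 a pair of TGTTCT sites lay 51 bp apart, at positions 20365188 and 20365239, with 0 of 4 reads each. These 4 were the members with another listed site of the same library within 200 bp. No hexamer of a member was read on both strands, against 40 of 8020 other sites in the GR library, 56 of 2696 in its IgG control and 122 of 4311 in the BMAL1-CLOCK library.

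In the IgG control of GR, 6 of 17 AGAACA members had a methylated read (35.3%), and so did 29.7% of all AGAACA sites of that table. The difference from the other sites was 5.67 points (-12.4 to 29.2). The mean level over the 17 members was 10% (SD over sites 15.2), and over the other sites 7.60% (SD over sites 13.0). Of these, 5 had 1 methylated read, namely ZNF689 with 1 of 5 reads, and ZNF454, ZNF117, ZNF33B and ZNF585A with 1 of 4 each.

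The sixth was the only member of any library at 50% or above. It lay 1943 bp from the TSS of ZNF764, a KRAB zinc finger gene, at position 30479028 of chromosome 16 (hg18, plus strand), with 2 of 4 reads methylated (exact 95% interval 6.76 to 93.2%). It did not pass the exact binomial test after adjustment (unadjusted p = 0.0310, adjusted p = 1). Highly methylated sites were 2.19% of all AGAACA sites of the IgG control, and 0.0952% passed the binomial test, none of them a member. At 4 reads, 2 methylated reads were too few to pass over 2100 sites. Not passing therefore says nothing about the level at ZNF764. The difference in highly methylated sites from the other AGAACA sites was 3.72 points (-1.17 to 24.8). With the zinc finger genes of other names, listed below, counted as members, 2 of 21 were highly methylated. The difference was then 7.41 points (0.499 to 26.8), a setting picked from many with no allowance for their number. The 2 TGTTCT members of the control, at ZNF718 and ZNF223, had 0 of 4 reads methylated each, so the level of either may be up to 75%. Among all TGTTCT sites of the control, 20.5% had a methylated read, 2.11% were highly methylated and 0.325% passed the binomial test.

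Methylated reads were common in the IgG library as a whole: 27.6% of its other sites had at least 1, against 3.10% in the GR library and 5.57% in the BMAL1-CLOCK library. The pooled level was 7.13% of reads over the other sites of the IgG control and 8.75% of the 80 reads of its members (exact 95% interval 3.59 to 17.2%). In the GR library it was 2.23% over the other sites and 0 of 372 reads over the members, which allows up to 0.806%. This limit takes reads as independent, while the 1140 methylated reads of the other GR sites lay at 249 of 8020 sites. By sites, 0 of 87 GR members allows a share with a methylated read of up to 3.45%, above the 3.10% of the other sites. What part the difference between the GR library and its IgG control has in the levels of the members was not tested. No member was read at an identical position and strand by both. Over all genes 77 sites were, 0.95% of the GR sites and 2.84% of the IgG sites. The level of 1 ZNF cytosine therefore cannot be set against the control. The closest were TGTTCT sites at ZNF718 on chromosome 4, at position 52348 in the GR library with 0 of 5 reads methylated and at 52161 in the control with 0 of 4, 187 bp apart.

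**Figure D2:**
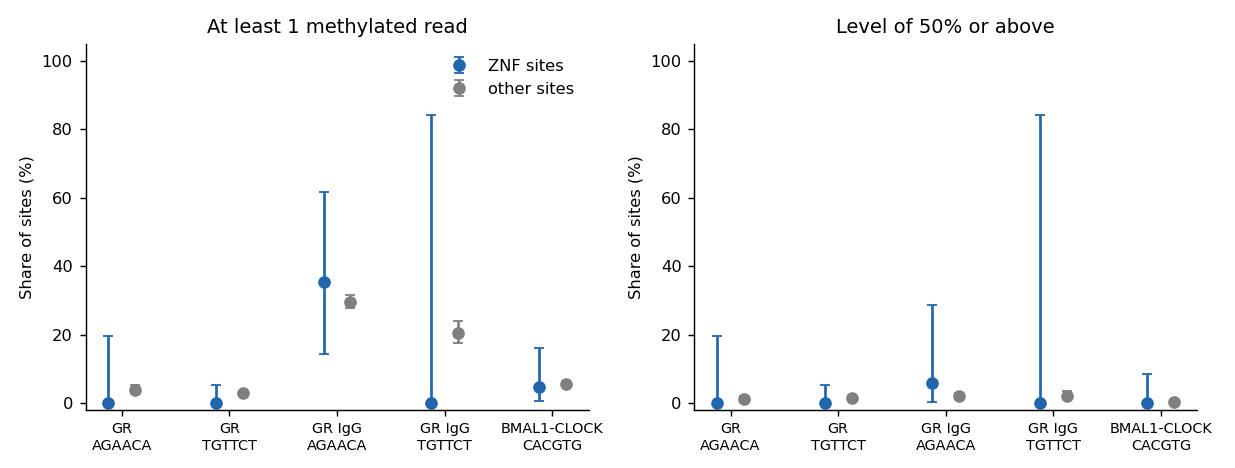
Share of sites (percent) with at least 1 methylated read (left) and at a level of 50% or above (right), for ZNF sites and all other sites of each table. Each bar is the exact 95% binomial interval of its point. The ZNF share with a methylated read is 0 of 87 sites for GR, 6 of 17 for IgG AGAACA and 2 of 42 for CACGTG, and every ZNF interval holds the share of the other sites.

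In the BMAL1-CLOCK library 40 of the 42 CACGTG members had no methylated read. The exceptions lay on chromosome 7, in a stretch where ZNF273, ZNF117 and ZNF92 all had sites. The site at ZNF92, at position 64452739 and 23463 bp from the TSS, had 1 of 10 reads methylated (10%, exact 95% interval 0.253 to 44.5%) and was the deepest member of all libraries. That at ZNF117, at position 64063031 and 25818 bp away, had 1 of 7 (14.3%, interval 0.361 to 57.9%). The unadjusted exact binomial p was 0.116 and 0.0830, and neither passed. A share of 4.76% of members with a methylated read stood beside 5.56% of all CACGTG sites, and the difference from the other sites was -0.805 points (-4.33 to 10.2). Highly methylated members were 0 of 42, so that their share may be up to 7.14%, and 0.115% of all CACGTG sites were. The binomial test passed 0.0459% of all CACGTG sites and none of the members.

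Other CACGTG members with 7 reads, at ZNF644, ZNF385D and ZNF407, had 0 methylated. Those nearest to a TSS were at ZNF30 (365 bp, 0 of 4 reads), ZNF644 (1755 bp, 0 of 7), ZNF561 (3955 bp, 0 of 4) and ZNF273 (4918 bp, 0 of 5). ZNF385D had the most members of this library, 5 sites from 48206 to 303859 bp from the TSS with 0 of 23 reads methylated in all. ZNF274, whose product binds the ends of other zinc finger genes, had 0 of 4 reads methylated at 13930 bp.

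At ZNF117 a methylated read was also found in the IgG control of GR, at an AGAACA site 15400 bp away. It was the only member gene with a methylated read in more than 1 library. For ZNF804A, a large gene with variants tied to psychiatric disease, all sites were far from the TSS. The GR library had 2 TGTTCT sites with 0 of 4 reads each at 593780 and 357952 bp, the control an AGAACA site with 0 of 5 at 372369 bp, and BMAL1-CLOCK a CACGTG site with 0 of 5 at 644797 bp. For ZNF703, a corepressor amplified in breast cancer, there was 1 site in each library, with 0 of 4 reads in GR, 0 of 4 in the control and 0 of 6 in BMAL1-CLOCK. Both genes thus had no methylated read in any of the 3 libraries, at different positions. With 4 to 6 reads per site, the level of a single site may still be up to 75% at 4 reads and 50% at 6.

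The members were concentrated on chromosome 19. It held 27 of the 148, at 23 genes, which is 18.2% of the members, and 0.778% of the other sites of all tables. Of the 144 sites listed on this chromosome, 18.8% were nearest to a ZNF gene (exact 95% interval 12.7 to 26.1%), against 0.805% of the 15033 sites elsewhere (0.668 to 0.961%). Chromosome 18 came next, with 8 of 271 sites (2.95%, interval 1.28 to 5.73%). The chromosome 19 share was 2 of 15 sites for GR AGAACA, 12 of 73 for GR TGTTCT, 5 of 16 and 1 of 4 for the IgG control, and 7 of 36 for BMAL1-CLOCK. Since the members were taken by gene name, this share also follows where ZNF genes lie, and it was not tested.

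**Figure D3:**
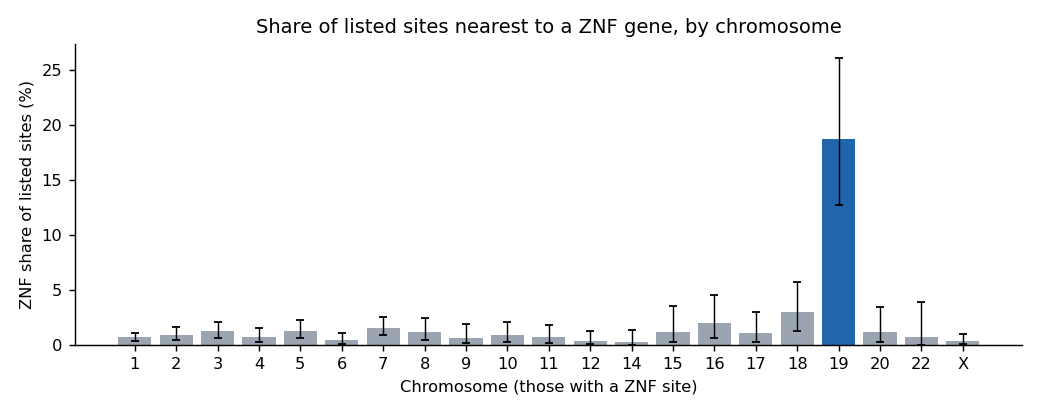
Share of listed sites nearest to a ZNF gene (percent, all tables together) for each chromosome with a member, with exact 95% binomial intervals. Chromosome 19 stands at 18.8% and every other chromosome at 2.95% or less.

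On chromosome 19, GR TGTTCT sites of other genes had a high share of highly methylated sites, 10 of 61 (16.4%), and 12 of 61 had a methylated read. The 12 ZNF sites there had none. They lay at ZNF846, ZNF826, ZNF568, ZNF780B, ZNF576, ZNF45, ZNF233, ZNF541, ZNF836, ZNF677 and ZNF71, with 4 to 6 reads each. The difference in highly methylated sites was -16.4 points (Newcombe 95% interval -27.6 to 8.91), which includes 0. In the IgG control 1 of 5 ZNF and 3 of 11 other AGAACA sites of chromosome 19 had a methylated read, and in the BMAL1-CLOCK library 0 of 7 and 0 of 29 CACGTG sites did.

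ZNF sites lay nearer to a TSS than the other sites of the same table by their medians. The median distance was 12772 bp against 34829 bp for GR AGAACA, 25300 against 43394 bp for GR TGTTCT, 14818 against 65317 bp for IgG AGAACA and 25063 against 63731 bp for CACGTG. Without chromosome 19 the medians of the GR tables were close, at 36585 against 35384 bp for AGAACA and 43445 against 44256 bp for TGTTCT. They stayed apart in the IgG control (13229 against 66212 bp) and for CACGTG (30016 against 64452 bp). Within chromosome 19 the medians of ZNF and other sites were 2566 and 2588 bp for GR AGAACA, 6024 and 11905 bp for GR TGTTCT, 15841 and 13683 bp for IgG AGAACA, and 10084 and 11578 bp for CACGTG, with 2, 12, 5 and 7 members.

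Within 5 kb of a TSS lay 5 of 17 GR AGAACA members (29.4%, other sites 13.3%), 9 of 70 GR TGTTCT members (12.9%, other sites 11.2%), 3 of 17 IgG AGAACA members (17.6%, other sites 6.82%) and 4 of 42 CACGTG members (9.52%, other sites 7.61%). The differences were 16.1 points (-0.196 to 39.9), 1.62 points (-4.37 to 11.5), 10.8 points (-0.685 to 34.2) and 1.92 points (-3.90 to 14.5), and each interval includes 0. This depended on the distance taken as near. For GR AGAACA the difference was 14.5 points at 1 kb (2.95 to 37.9) and 17.2 points at 2 kb, as given above. At 5 kb it was 16.7 points without mitochondrial and unplaced sequence and the transfected genes (0.422 to 40.5). Over rows as deposited, before repeated rows were removed, it was 13.1 points at 5 kb (2.57 to 27.3). That value counts 12 of 46 rows for the 5 of 17 sites. Copies of the same cytosine enter it as separate, so its interval is narrower than distinct sites allow. For IgG AGAACA the difference was 9.22 points at 2 kb (0.709 to 31.8) and, at 5 kb, 13.2 points without the older symbols (0.178 to 38.4). These intervals leave out 0, as does that of GR TGTTCT at 2 kb, where the ZNF share was the lower. They were picked from many settings with no allowance for their number. Leaving out the older symbols was chosen after seeing the data. At 10 kb the intervals of these 4 tables include 0. Beyond 100 kb lay 4, 17, 3 and 7 members of these tables. This was 23.5% of members and 27.0% of the other sites for GR AGAACA, 24.3 and 30.6% for GR TGTTCT, 17.6 and 41.2% for IgG AGAACA, and 16.7 and 38.9% for CACGTG. Distances carry no sign in the tables, and whether a site lies in an exon or an intron was not analysed here.

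Lower-case letters in the deposited hexamers were seen in the GR tables, while CACGTG was written in capitals throughout. Lower case is the usual mark of repeat-masked sequence, but the sources used here do not say so of these tables, and that reading was not tested. A hexamer was counted where all 6 letters were in lower case. In the GR library this held for 9 of 17 AGAACA members (52.9%, other sites 42.0%) and 36 of 70 TGTTCT members (51.4%, other sites 44.1%), with differences of 10.9 points (-11.3 to 32.0) and 7.35 points (-4.18 to 18.7). In the IgG control it held for 16 of 17 AGAACA members (94.1%) against 66.9% of the other sites, 27.2 points more (6.05 to 32.5). The exception was the ZNF764 site, with 2 methylated reads. All other AGAACA members of the control were in lower case, both the 5 with 1 methylated read and those with none. Among IgG TGTTCT sites, 1 of 2 members (50%) and 47.1% of the other sites were in lower case (2.85 points, -37.9 to 43.6). On chromosome 19 the ZNF share was 9 of 12 for GR TGTTCT, beside 30 of 61 other sites.

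Zinc finger genes under other names were counted in the same way. Genes starting with ZFP, ZSCAN, ZKSCAN or ZBTB and a digit, with ZIK1, ZIM2, ZIM3 and the KRAB partners TRIM28 and SETDB1, had 35 sites at 20 genes. ZIK1, ZIM3, TRIM28 and SETDB1 had none. In the GR library 0 of 20 such sites had a methylated read (0 of 82 reads, which allows up to 3.66%), among them 5 at ZBTB20, a BTB zinc finger repressor. As a share of sites, 0 of 20 allows up to 15%. In the IgG control 2 of 6 had one, ZBTB20 with 1 of 4 reads and ZFP112 with 2 of 4, and in the BMAL1-CLOCK library 1 of 9, ZSCAN20 with 1 of 4 reads. Among all sites outside the ZNF genes the share was 3.10% in GR, 27.6% in its IgG control and 5.57% in BMAL1-CLOCK. With so few sites, these counts were not told apart from those shares.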

How the data were processed

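Methylated and total read counts per cytosine were taken as deposited. According to the methods, the authors merged both sequencing runs of each library, aligned reads to hg18 with Bismark, counted the overlap of read pairs once, used SAMtools against PCR duplicates and kept cytosines with 4 or more reads. The sources used here give no tool versions. The counts are not normalized. The deposited tables also give the unsigned TSS distance in bp and the nearest gene.

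Repeated rows with identical counts were counted once, which left 17 of 46 GR AGAACA and 70 of 72 GR TGTTCT rows of ZNF genes. The motif is that of the table. The level is the percent of methylated reads. Shares have Clopper-Pearson 95% intervals and differences Newcombe intervals. Single sites went through an exact binomial test, one-sided, over each whole table (adjusted p under 0.05), and shared GR and IgG sites by Fisher's exact test. A count of 0 is given with the limit of 3 counts. The tests were tested on simulated data. Named sites are, per table, those at 50% or above, the 5 deepest, the 5 nearest to a TSS, the genes with the most sites, and genes in all libraries. Sites on chromosome 19 and neighbouring sites were named after their values were seen. The members and lists were chosen with earlier results of these data known. Symbols were matched to RefSeq tables, and 73 of 96 had a promoter entry. Python 3.11.15, pandas 2.3.3, scipy 1.17.1 and matplotlib 3.10.9 were used.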

Additional observations from a re-analysis of the deposited data

How the results depend on the processing

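With 4 to 10 reads per member, levels can be told apart only coarsely, which limits the shares of methylated sites. Of 189 values under alternatives, 151 were differences with a counting interval, of which 131 stayed within that of the reported value and 20 did not. The other 38 were counts and stayed at 0. All differences here are ZNF minus other sites, in percentage points. The cause of a move was not tested, except that fewer sites enter where sites are left out. No GR member had a methylated read, so each methylation difference in the GR library is minus the share of the other sites. Those differences therefore moved with the other sites alone.

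On chromosome 19 alone the share with a methylated read moved to -7.69 (GR AGAACA, 2 members) and -19.7 (GR TGTTCT, 12), the highly methylated share to -7.69, -16.4 and, for IgG AGAACA, -9.09, and the share within 5 kb to -19.2, 12.3 and -36.4 for the same tables. Within 100 kb of a TSS, GR TGTTCT moved to -3.64 (any methylated read) and -2.03 (highly methylated), and the near share of IgG TGTTCT to -12.4. With highly methylated set at 25% the differences were -2.74 for GR AGAACA, -2.47 for GR TGTTCT, -14.4 for IgG TGTTCT and -2.74 for CACGTG. With near set at 2 kb the GR TGTTCT difference was -5.36, and at 10 kb that of IgG TGTTCT was 86.6, with both of its 2 sites inside. A minimum of 8 or 10 reads left 1 CACGTG member, at ZNF92, and differences of 89.4 and 80.8 (any methylated read) and, at 8 reads, -4.26 (near). It left no member in the GR and IgG tables, so 32 values could not be given. The sign was reversed in 17 values, and 7 became 0. Reversed were, among others, the highly methylated difference of IgG AGAACA at 75% (-0.432) and above 50% (-0.528), where the ZNF764 site no longer counts, and the near share of GR TGTTCT without the 5 older symbols (-0.631), an alternative chosen after seeing the data, as was the limit on reads. No ZNF position of the GR library had an IgG site within 10 bp. No paired analysis was possible because each group has 1 library.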
